A study of Homo sapiens with 6 samples.

Results

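Aminoacyl-tRNA synthetases were examined in the human myeloma line MM1.S after knockdown of beta-catenin. The family was taken as 35 genes, 19 for cytosolic enzymes and 16 for mitochondrial enzymes, out of 19775 genes with a probe set of a single symbol. Members were found by their symbol in the array annotation. Of the 35, 32 had at least 1 probe set of a single symbol (67 probe sets in all) and 31 passed the filter on dim probe sets, 17 cytosolic and 14 mitochondrial. MARS1, QARS1 and TARS2 were read only by probe sets that the annotation also pairs with a microRNA gene, and they were not analysed here. PARS2, the mitochondrial prolyl enzyme, lay below the filter.

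Both groups were MM1.S cells infected with lentivirus and sorted for GFP. The 3 control arrays came from cells with a control shRNA (pKLO GFP control) and the 3 knockdown arrays from cells with a beta-catenin shRNA (pKLO beta-catenin shRNA). The titles call the replicates biological. By the labels, the sorted cells were cultured in triplicate, and nothing there speaks of separate infections. The p-values therefore measure the spread between these cultures, which may be technical. A part of the labels that speaks of embryos contradicts the cell line and was not used.

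An aminoacyl-tRNA synthetase joins an amino acid to its tRNA, which makes the substrate of the ribosome. Animal cells carry a cytosolic and a mitochondrial set of these enzymes, most of them encoded by separate nuclear genes; the genes whose symbols end in 2 encode the mitochondrial set. When charged tRNA runs short, the kinase GCN2 senses uncharged tRNA and phosphorylates eIF2 alpha, and the transcription factor ATF4, whose translation then rises, is known to activate many genes of amino acid supply and several cytosolic synthetase genes. Plasma cells and myeloma cells secrete large amounts of immunoglobulin and depend on a high rate of protein synthesis.

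CTNNB1, the gene of beta-catenin, checked the labels: its brightest probe set read 7.82, 7.67 and 7.75 in the control arrays and 6.39, 6.53 and 6.34 in the knockdown arrays on the log2 scale. All 9 plasma cell markers measured lay above the filter, and their summed level was 13.34 to 13.39 in control and 13.43 to 13.49 in knockdown arrays. The sum is of linear signal, so the brightest marker, JCHAIN (change −0.0065), weighs most. Singly, 4 of the 9 were called higher and 3 lower by the rule given below, against 25.3% and 22.0% of all genes tested. Their changes ran from −0.32 (TNFRSF17) to 0.82 (MZB1). Of the markers of other cells, 1 of 4 measured for B cells, 1 of 5 for T and NK cells, 2 of 4 for myeloid cells and 4 of 5 for fibroblasts passed the filter. Their summed levels were 7.97 to 8.08 in control and 8.05 to 8.15 in knockdown arrays for B cells, 7.21 to 7.28 and 7.12 to 7.40 for T and NK cells, 7.34 to 7.51 and 7.44 to 7.49 for myeloid cells, and 8.71 to 8.88 and 8.81 to 8.90 for fibroblasts. No measured marker was near the table's floor on all arrays. The arrays' 3 ribosomal RNA control probe sets read 8.58, 10.15 and 9.08 in control and 10.33, 10.52 and 11.01 in knockdown arrays on average, and their part in the results below was not tested. Array medians were 5.44 to 5.50 in control and 5.50 to 5.54 in knockdown arrays.

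Values below are deposited log2 values, 1 probe set a gene (the one with the highest mean), and changes are knockdown minus control. The table's floor of 4 is log2 of 16; if, as its form implies but no source states, 16 was added before the log, changes of dim probe sets are understated. Levels of different genes cannot be compared, since each probe set has its own response. In bulk RNA, less of a transcript per cell and fewer cells that carry it cannot be told apart. Genes are called at a limma adjusted p under 0.05, with Benjamini-Hochberg adjustment over all 12939 genes tested. Besides the spread between cultures, limma draws on a variance shared over genes, so the size of very small p-values depends on the fit. For AARS1 the limma adjusted p ran from 1.96e-54 to 2.57e-08 over the alternatives described at the end.

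Most cytosolic enzymes were higher in the knockdown, while most mitochondrial enzymes were not called. Of 17 cytosolic enzymes tested, 11 were higher in the knockdown, 4 were lower and 2 were not called, with a median change of 0.64. Of 14 mitochondrial enzymes tested, 1 was higher, 4 were lower and 9 were not called, with a median change of −0.19. Over all genes tested, 47.3% were called, 25.3% higher and 22.0% lower, and the median change was 0.05. The mitochondrial share of lower calls was thus close to that of all genes under the deposited scale, and it depended on the scaling: 7 mitochondrial enzymes were lower after quantile normalization, when 24.8% of all genes were, and 8 after centring on array medians (25.6% of all genes) or cyclic loess (25.2%). Array groups did not overlap for 15 of 17 cytosolic and 10 of 14 mitochondrial enzymes, against 54.4% of all genes.

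**Figure D1:**
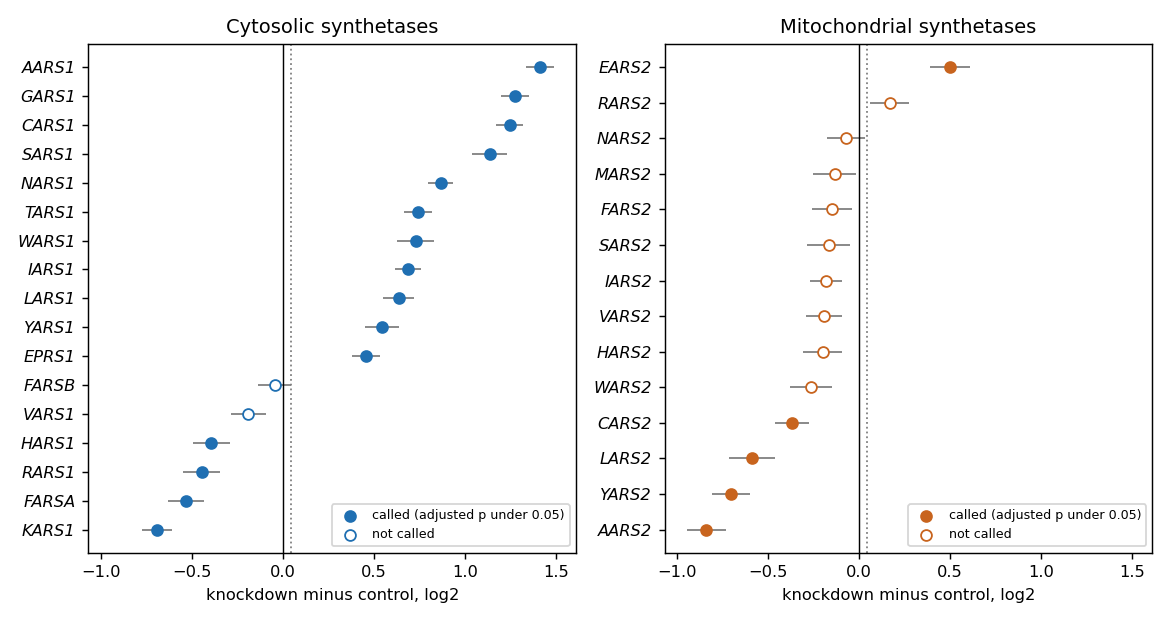
Each tested synthetase gene's change (log2, knockdown minus control) with its limma SE as a bar; filled points passed the adjusted p threshold, open points did not, and the dotted line is the median of all genes tested (0.05). Of the 17 cytosolic genes, 11 are filled to the right of 0 and 4 to the left; of the 14 mitochondrial genes, 1 is filled to the right and 4 to the left.

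Among the cytosolic enzymes, 4 rose by at least 2-fold, while 6.12% of all genes were called with a change of that size and 2.74% were called higher by it. AARS1, which charges alanine tRNA and has a domain that edits misacylated tRNA, read 9.29, 9.04 and 8.97 in control and 10.52, 10.54 and 10.48 in knockdown arrays. All 3 knockdown arrays lay more than a log2 unit above every control array. The rise was 1.41 (SE 0.08), or 2.66-fold (limma, adjusted p = 2.26e-15). GARS1, whose single gene supplies the glycyl enzyme of both compartments, read 9.52, 9.41 and 9.18 against 10.56, 10.66 and 10.71. It rose by 1.27 (SE 0.08), or 2.42-fold (limma, adjusted p = 2.35e-14), with no overlap between groups.

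CARS1, the cysteinyl enzyme, read 9.08, 9.02 and 8.91 in control and 10.30, 10.29 and 10.16 in knockdown arrays, which was 2.37-fold higher, a rise of 1.25 (SE 0.07; limma, adjusted p = 1.84e-14). CARS1 has 2 further probe sets above the filter, which changed by 1.05 and 1.12, and 1 below it with 0.15. SARS1, which charges serine tRNA and also the tRNA on which selenocysteine is made, read 7.60, 7.38 and 7.50 against 8.65, 8.68 and 8.56, a rise of 1.14 (SE 0.10), or 2.20-fold (limma, adjusted p = 3.61e-11). The changes of AARS1, GARS1, CARS1 and SARS1 lay between the 98.1 and 99.1 percentiles of the changes of all genes tested.

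A further 7 cytosolic enzymes rose by less than 2-fold. NARS1, the asparaginyl enzyme, read 9.34, 9.21 and 9.27 in control and 10.11, 10.18 and 10.14 in knockdown arrays, a rise of 0.87 (SE 0.07). TARS1, the threonyl enzyme, read 9.09, 8.95 and 8.95 against 9.73, 9.74 and 9.74 and rose by 0.74 (SE 0.08). The tryptophanyl enzyme WARS1, which is also known as an interferon-induced gene, read 6.94, 6.79 and 6.86 against 7.54, 7.65 and 7.60 and rose by 0.73 (SE 0.10). In these 3 genes the lowest knockdown array was above the highest control array. IARS1, the isoleucyl enzyme, read 9.53, 9.39 and 9.38 against 10.05, 10.20 and 10.11 and rose by 0.69 (SE 0.07). LARS1, the leucyl enzyme and a sensor of leucine for the mTORC1 pathway, read 8.81, 8.58 and 8.71 against 9.39, 9.39 and 9.24 and rose by 0.64 (SE 0.08). YARS1, the tyrosyl enzyme, read 8.82, 8.43 and 8.56 against 9.06, 9.23 and 9.16 and rose by 0.54 (SE 0.09). EPRS1, a fusion of the glutamyl and prolyl enzymes, read 10.22, 9.78 and 10.03 against 10.45, 10.47 and 10.47 and rose by 0.45 (SE 0.08). Control and knockdown arrays did not overlap in any of these 7 genes, and the largest adjusted p among them was that of YARS1 (limma, 1.75e-05).

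The 4 cytosolic enzymes that fell were KARS1, FARSA, RARS1 and HARS1. KARS1, the lysyl enzyme, which like GARS1 serves both compartments from a single gene, read 9.65, 9.42 and 9.51 in control and 8.86, 8.82 and 8.82 in knockdown arrays. It fell by 0.69 (SE 0.08), or 1.62-fold (limma, adjusted p = 2.68e-08), and another KARS1 probe set changed by −0.58. The genes of the 2 enzymes shared by cytosol and mitochondria thus moved in opposite directions. FARSA, the catalytic alpha subunit of the cytosolic phenylalanyl enzyme, read 8.32, 8.08 and 8.05 against 7.60, 7.70 and 7.55 and fell by 0.53 (SE 0.10; limma, adjusted p = 5.76e-05), with −0.46 on its other probe set. RARS1, the arginyl enzyme, read 7.75, 7.48 and 7.55 against 7.14, 7.16 and 7.15 and fell by 0.45 (SE 0.10; limma, adjusted p = 6.53e-04). HARS1, the histidyl enzyme, read 7.999, 7.75 and 7.85 against 7.51, 7.55 and 7.37 and fell by 0.39 (SE 0.10; limma, adjusted p = 0.00197). When tested against a 1.2-fold change, RARS1 and HARS1 were no longer called (limma, adjusted p = 0.162 and 0.342).

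FARSB and VARS1 were not called. FARSB, the beta subunit of the phenylalanyl enzyme, read 8.92, 8.64 and 8.75 in control and 8.69, 8.81 and 8.66 in knockdown arrays on its brightest probe set, a difference of −0.05 (SE 0.09; limma, adjusted p = 0.709). The groups overlapped there, but a dimmer FARSB probe set rose by 1.29 (limma, adjusted p = 1.39e-06 over all probe sets). That probe set averaged 4.86 in control arrays, below the filter, and passed it only through its knockdown arrays (6.15). The other FARSB probe set changed by −0.31 without being called, so the gene's direction was not settled. VARS1, the valyl enzyme, read 8.48, 8.23 and 8.33 against 8.10, 8.29 and 8.08, a difference of −0.19 (SE 0.10; limma, adjusted p = 0.107), with overlapping groups. It was called lower after quantile normalization, centring or cyclic loess, and without control replicate 2 (lowest adjusted p 0.0332, limma).

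**Figure D2:**
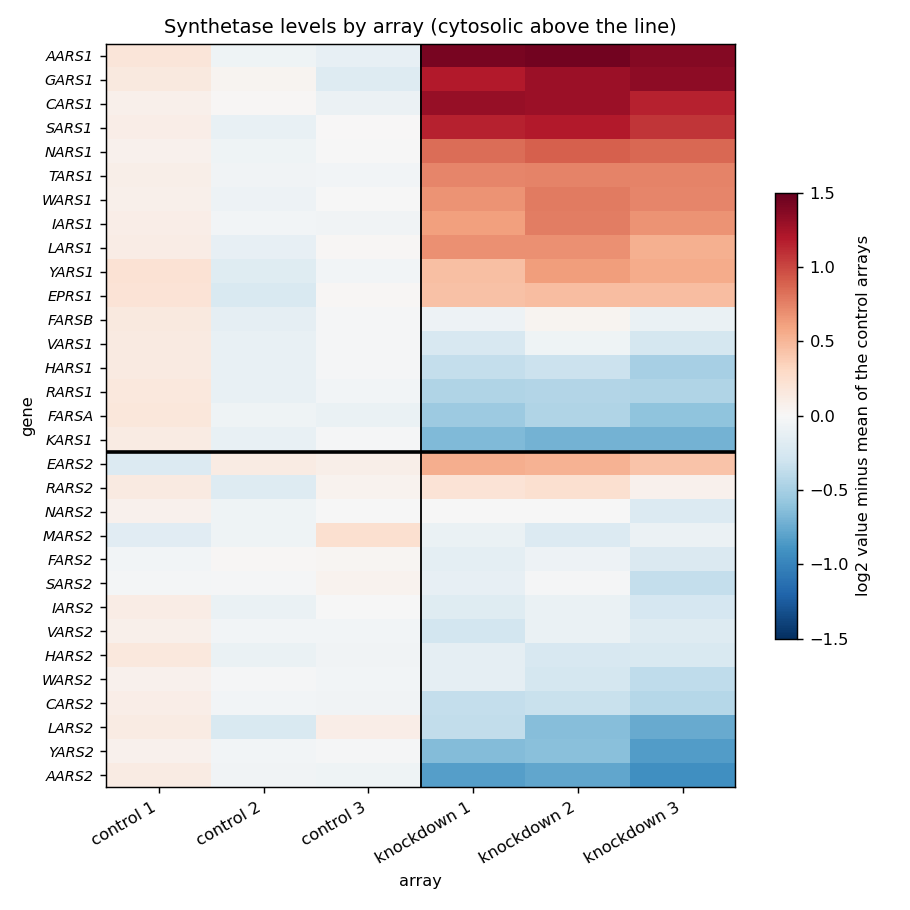
Log2 value of each tested synthetase gene (rows) on each of the 6 arrays (columns), less the mean of the gene's control arrays; red is higher and blue lower, and the thick line parts the 17 cytosolic genes above from the 14 mitochondrial genes below. The 3 knockdown arrays show like colours within each called gene, and control 1 is the highest of the control arrays in all 17 cytosolic and 10 of 14 mitochondrial genes.

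Control replicate 1 was the highest of the control arrays in all 17 cytosolic genes tested. The share over all genes was not computed, so this was not shown to be particular to the synthetases. Without control replicate 1 the count was again 11 higher and 4 lower, and the median change was 0.69.

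A split of the cytosolic enzymes by their known biochemistry did not part those that rose from those that fell. Synthetases form 2 classes with unrelated catalytic folds. Of 7 tested class I enzymes 5 were higher and 1 lower (median 0.64), and of 9 class II enzymes or subunits 5 were higher and 3 lower (median 0.74); EPRS1 holds a part of each class and was left out. Several enzymes reside in the multisynthetase complex. Of its 5 tested enzymes 3 were higher and 2 lower (EPRS1, IARS1 and LARS1 against KARS1 and RARS1), with a median of 0.45. Of the 12 other cytosolic enzymes 8 were higher and 2 lower (median 0.74). AIMP1, a scaffold protein of the complex, changed by 0.15 (SE 0.09; limma, adjusted p = 0.162).

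Of the 14 mitochondrial enzymes tested, 12 had a change below 0, but 9 were not called. AARS2, the mitochondrial alanyl enzyme, had the most negative change of the set and read 7.35, 7.17 and 7.16 in control and 6.40, 6.45 and 6.31 in knockdown arrays. It fell by 0.84 (SE 0.11), or 1.79-fold (limma, adjusted p = 1.22e-07), with no overlap between groups. YARS2, the tyrosyl enzyme, read 7.26, 7.15 and 7.17 against 6.55, 6.57 and 6.35 and fell by 0.70 (SE 0.11), or 1.63-fold (limma, adjusted p = 2.38e-06). LARS2, the leucyl enzyme, read 6.24, 5.89 and 6.22 against 5.75, 5.48 and 5.36 and fell by 0.59 (SE 0.13; limma, adjusted p = 3.27e-04), and its other probe set changed by −0.95. AARS2, YARS2 and LARS2 kept their calls under each of the alternatives that tested them.

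CARS2 and EARS2 were called as well, but their probe sets disagreed. CARS2, the cysteinyl enzyme, read 8.49, 8.34 and 8.34 in control and 8.04, 8.06 and 7.97 in knockdown arrays and fell by 0.37 (SE 0.09; limma, adjusted p = 0.00138). A dimmer CARS2 probe set rose by 0.41 (limma, adjusted p = 0.0168 over all probe sets), and the mean over the gene's probe sets changed by 0.11. EARS2, the glutamyl enzyme, was the mitochondrial gene called higher: it read 6.39, 6.71 and 6.67 against 7.13, 7.11 and 7.01 and rose by 0.50 (SE 0.11; limma, adjusted p = 4.09e-04). Its other 3 probe sets, all above the filter, changed by −0.25, −0.16 and −0.10 without being called, and the mean over its probe sets was −0.0036. Of the 4 EARS2 probe sets, 1 showed the rise. In control arrays it averaged 6.59, below the 6.63 of the probe set that changed by −0.25. It was thus the one with the highest mean only through its knockdown arrays.

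The 9 mitochondrial enzymes that were not called had changes from −0.26 (WARS2, tryptophanyl) to 0.17 (RARS2, arginyl). WARS2 read 5.89, 5.81 and 5.78 in control and 5.69, 5.56 and 5.44 in knockdown arrays, which did not overlap (limma, adjusted p = 0.0661). HARS2, the histidyl enzyme, read 6.99, 6.74 and 6.79 against 6.70, 6.60 and 6.61 (change −0.20, SE 0.11; limma, adjusted p = 0.131), and IARS2, the isoleucyl enzyme, read 8.84, 8.63 and 8.72 against 8.54, 8.62 and 8.48 (change −0.18, SE 0.09; limma, adjusted p = 0.0957). In these genes the groups lay apart by a gap smaller than the spread within a group. FARS2, the phenylalanyl enzyme, read 6.04, 6.10 and 6.11 against 5.94, 6.00 and 5.87 (change −0.15), and a second FARS2 probe set was called lower, with a change of −0.47. VARS2, the valyl enzyme, changed by −0.19, with 7.76, 7.64 and 7.64 against 7.41, 7.57 and 7.48.

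The groups overlapped in the remaining 4. SARS2, the seryl enzyme, read 6.04, 6.06 and 6.13 in control and 5.95, 6.05 and 5.72 in knockdown arrays, a change of −0.17 (SE 0.12). MARS2, the methionyl enzyme, differed by −0.14 (SE 0.12), and NARS2, the asparaginyl enzyme, read 7.15, 7.02 and 7.08 against 7.08, 7.08 and 6.88 and differed by −0.07 (SE 0.11). RARS2 read 7.33, 7.01 and 7.25 against 7.40, 7.43 and 7.26 (change 0.17, SE 0.11), the only uncalled mitochondrial enzyme with a change above 0. PARS2, below the filter, read 5.37, 5.22 and 5.18 against 5.21, 5.36 and 5.66 and was not tested.

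**Figure D3:**
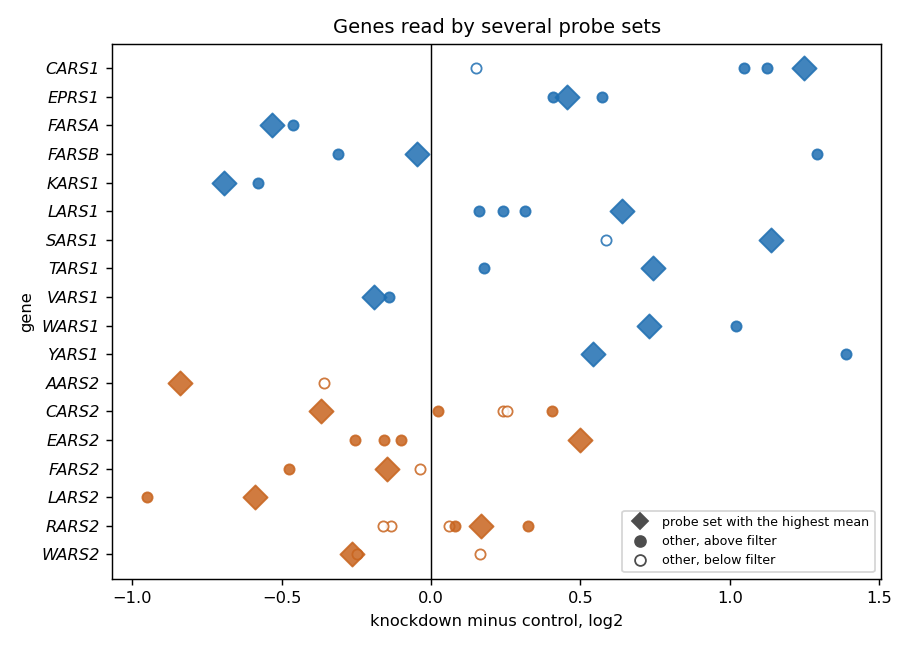
Change of every probe set of the tested synthetase genes read by more than 1 probe set, knockdown minus control on the log2 scale; diamonds are the probe set used for the gene, filled circles others above the filter and open circles others below it, blue for cytosolic and orange for mitochondrial genes. FARSB, CARS2, EARS2, RARS2 and WARS2 have points on both sides of 0, as far apart as −0.31 and 1.29 in FARSB.

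Single probe sets above the filter were also counted, with adjustment over all probe sets. Of 32 cytosolic probe sets 19 were higher, 6 lower and 7 not called, and of 23 mitochondrial ones 2 were higher, 6 lower and 15 not called. Of all probe sets above the filter 38.3% were called. The 19 include the dimmer FARSB probe set, which passed the filter only through its knockdown arrays. The 6 mitochondrial ones that were lower include the other LARS2 probe set, which passed only through its control arrays (6.09, against 5.14 in knockdown arrays). Of the 11 cytosolic genes called higher, 6 had another probe set above the filter, and in 5 of these (CARS1, EPRS1, LARS1, WARS1 and YARS1) at least 1 was called higher too. The other TARS1 probe set, whose mean lay just above the filter, changed by 0.18 and was not called. The size of the rise varied between probe sets: YARS1 rose by 0.54 on the brightest and by 1.39 on the other. The 3 other LARS1 probe sets changed by 0.16, 0.24 and 0.31, and only the last was called.

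Each of 14 amino acids was given a pair of genes, a cytosolic enzyme (for phenylalanine its alpha subunit) and the mitochondrial one, and in 12 pairs both were tested on the same arrays. The pairs left out EPRS1, whose gene serves 2 amino acids. The cytosolic gene changed by more than its mitochondrial partner in 9 of 12 pairs by value, and the median difference of the changes was 0.97. In 8 of these 9 the knockdown arrays did not overlap the control arrays. The share for pairs of genes in general was not computed, and of single genes 54.4% did not overlap. The pair of alanine differed most: log2 AARS1 minus log2 AARS2 was 1.93, 1.87 and 1.82 in control and 4.12, 4.09 and 4.17 in knockdown arrays, a difference of 2.26 (SE 0.04). For cysteine it moved from 0.59, 0.67 and 0.57 to 2.27, 2.23 and 2.19, a difference of 1.62 (SE 0.04), which was 0.78 with the mean over probe sets. For serine, tyrosine and leucine the differences were 1.31 (SE 0.09), 1.25 (SE 0.12) and 1.23 (SE 0.10). For tryptophan, asparagine and isoleucine they were 0.996 (SE 0.09), 0.94 (SE 0.07) and 0.87 (SE 0.05).

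In the valine pair both genes changed alike by value (−0.19 each, difference 0.0011, SE 0.05). In 3 pairs the cytosolic gene had the lower change: arginine with −0.61 (SE 0.07), phenylalanine, read by FARSA and FARS2, with −0.38 (SE 0.11), and histidine with −0.19 (SE 0.06). Each of the 11 pairs without overlap had an exact two-sided permutation p of 0.1, the smallest that 3 against 3 arrays can give, or 0.109 after Benjamini-Hochberg adjustment over the 12 pairs; for valine it was 1. With the mean over probe sets 9 of 12 pairs again had the higher change on the cytosolic side, with a median difference of 0.90.

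EPRS1 and EARS2, which hold the glutamyl enzymes of cytosol and mitochondria, were set side by side after their values were seen. Log2 EPRS1 minus log2 EARS2 was 3.83, 3.08 and 3.36 in control and 3.32, 3.36 and 3.46 in knockdown arrays. The groups overlapped, with a difference of the changes of −0.04 (SE 0.22; exact two-sided permutation p = 0.8), unlike the 9 pairs above by value. With the mean over the probe sets of each gene, the difference was 0.48 (exact permutation p = 0.1). The first value rests on the EARS2 probe set that had the highest mean only through its knockdown arrays.

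**Figure D4:**
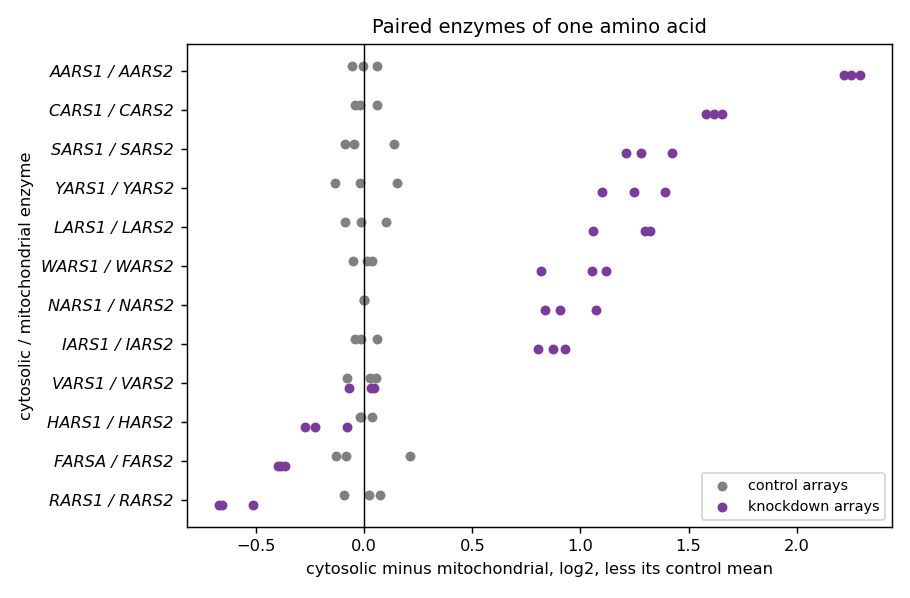
Log2 value of the cytosolic enzyme minus that of the mitochondrial enzyme of the same amino acid, less the mean of that difference over the control arrays, for each control array (grey) and knockdown array (purple). The knockdown arrays lie to the right of the control arrays in 8 pairs, overlap them in the valine pair and lie to the left in the histidine, phenylalanine and arginine pairs.

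HARS1 and HARS2 are neighbours that face away from each other. In RefSeq (GRCh38.p14) their starts lie 85 bases apart on opposite strands of chromosome 5, and their promoter windows, chr5:140691321-140691620 and chr5:140691205-140691504, share 184 bases. Both had a change below 0, −0.39 for HARS1 and −0.20 for HARS2, of which only the first was called.

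The promoters of the members were searched for the core of the C/EBP-ATF response element, TGATGNAA on either strand, to which ATF4 with a C/EBP partner is known to bind. RefSeq windows from 250 bases before to 50 after a gene's start were found for 30 of 35 members (39 windows, some of which overlap). There was none for LARS1, VARS1, YARS1, AARS2 and VARS2. The core was present in 7 of 16 cytosolic genes with a window (43.8%) and in 1 of 14 mitochondrial genes (7.14%), against 4.46% of all genes with a window and 3.81% of all genes called higher. Of 9 cytosolic genes that were higher, 6 held it, and of the 4 that were lower, 0 did. The seventh was MARS1, whose transcript was not analysed here. A match is a description of the letters and does not show binding.

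The matches are printed with 11 bases on their left and up to 11 on their right, 5′ to 3′ on the gene's strand, with the core in capitals and its distance taken at its first letter. They are shown because AARS1, CARS1, IARS1, TARS1 and NARS1, which were all called higher, and MARS1 carry the same 8 letters, in NARS1 on the opposite strand.
AARS1 (chr16:70289675-70289704, minus strand, 187 bases before the start): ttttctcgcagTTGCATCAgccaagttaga
CARS1 (chr11:3057407-3057436, minus strand, 2 bases before 1 of its starts): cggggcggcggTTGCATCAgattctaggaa
IARS1 (chr9:92293692-92293721, minus strand, 13 bases before the start): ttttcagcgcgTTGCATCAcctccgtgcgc
TARS1 (chr5:33440956-33440985, plus strand, 2 bases after 1 of its starts): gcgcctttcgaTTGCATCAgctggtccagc
NARS1 (chr18:57621807-57621833, minus strand, 14 bases after the start): tctacgctctcTGATGCAAcgccggaa
MARS1 (chr12:57488053-57488082, plus strand, 4 bases before the start): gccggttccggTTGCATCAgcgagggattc
GARS1 (chr7:30594834-30594863, plus strand, 33 bases before 1 of its starts): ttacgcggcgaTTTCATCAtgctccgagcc
YARS2 (chr12:32756076-32756105, minus strand, 197 bases before the start): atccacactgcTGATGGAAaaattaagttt

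GARS1 differs from these in a letter that the search left free, and so does YARS2, the mitochondrial gene with a match, which fell. SARS1, WARS1 and EPRS1 rose without a match in their windows. The E-box CACGTG, which MYC and related factors bind, reads the same on both strands and shares no letters with the first core in any member. It was present in 1 of 16 cytosolic genes (IARS1) and in 3 of 14 mitochondrial genes (CARS2, EARS2 and MARS2), against 8.77% of all genes with a window.

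Other genes of tRNA use were read from lists beside the synthetases. A list of 10 genes joined the sensing of uncharged tRNA with ATF4 and other genes that do not sense tRNA, such as ASNS. Of these 10, 8 were higher and 2 lower, with a median change of 1.90, where 25.3% of all genes were higher and 22.0% lower. The 8 include CHAC1, which passed the filter only through its knockdown arrays (mean 8.85, against 5.15 in control arrays). CHAC1, which degrades glutathione, rose by 3.69, the asparagine synthetase ASNS by 2.08, ATF4 by 1.72 and DDIT3, the transcription factor CHOP, by 2.55; the largest adjusted p of these 4 was 7.25e-18 (limma, DDIT3). Within the sensing step the genes moved both ways. EIF2AK4, which encodes GCN2, rose by 1.15 (SE 0.11). IMPACT, listed for the same step and named after its values were seen, rose by 0.70 (SE 0.12). The 2 that were lower, named after their values were seen, were GCN1, an activator of GCN2, which fell by 0.63, and EIF2S1, which encodes eIF2 alpha and fell by 1.21.

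Of 14 genes of tRNA maturation and export tested, 3 were higher and 8 lower (median −0.31), against the same 25.3% and 22.0% of all genes. After centring or cyclic loess 9 were lower. The 3 include RPP25, which passed the filter only through its knockdown arrays (mean 5.87, against 5.26 in control arrays). XPOT, the nuclear export receptor of tRNA, read 8.98, 8.93 and 9.10 in control and 10.01, 10.03 and 9.96 in knockdown arrays and rose by 0.99 (SE 0.07; limma, adjusted p = 3.86e-12). RPP40, a subunit of RNase P, fell by 1.07, SSB, the La protein that binds new tRNA transcripts, by 0.72 and RTCB, the tRNA ligase, by 0.63. Of 5 cytosolic elongation genes, 1 was higher (EEF2, 0.55) and 1 lower (EIF5A, −0.37), with a median of 0.07. The changes of 6 editing and selenocysteine genes ran from −0.24 to 0.29.

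On the mitochondrial side, 5 of 9 translation factors tested were lower and 1 was higher (median −0.31), against 22.0% and 25.3% of all genes. These counts were the same after quantile normalization, centring and cyclic loess. MRPL58, a peptidyl-tRNA hydrolase of the mitochondrial ribosome, fell by 1.22, the elongation factors TUFM and GFM1 by 0.75 and 0.44, and MTRF1L, a release factor, rose by 0.28. Mitochondria make glutaminyl-tRNA by an amidotransferase and formylate the initiator methionyl-tRNA. Of the 4 genes of these steps 2 were lower, MTFMT, the formyltransferase, by 0.57 (limma, adjusted p = 3.09e-04) and the amidotransferase subunit QRSL1, which changed by −0.33 (limma, adjusted p = 0.0145). GATB and GATC, its other subunits, differed by 0.0068 and −0.05.

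**Figure D5:**
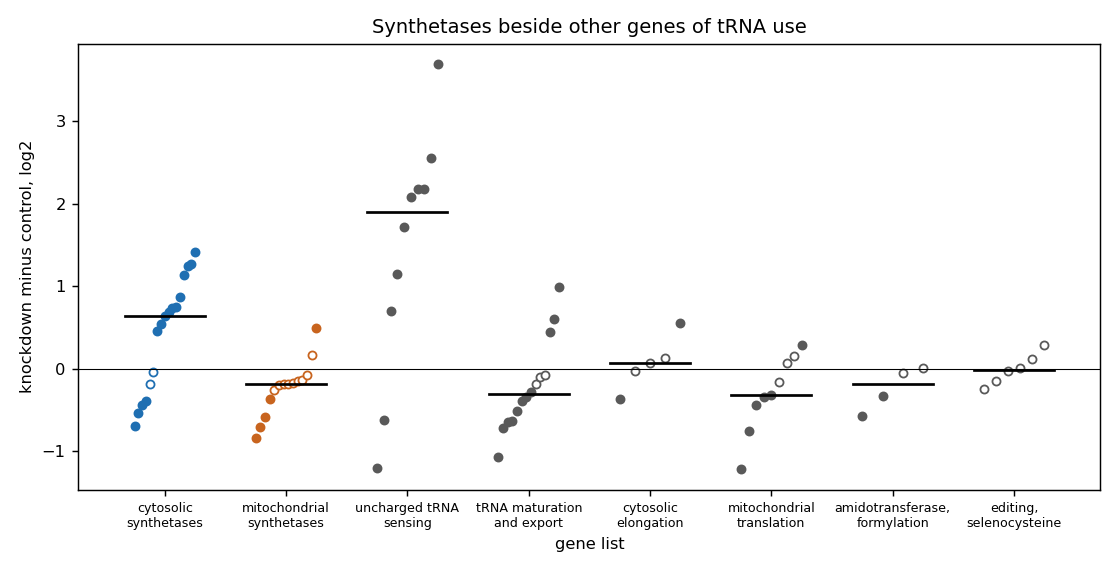
Change of each tested gene, knockdown minus control on the log2 scale, for the synthetases and 6 lists of genes of tRNA use; filled points were called, open points were not, and bars are medians. The bar lies at 0.64 for cytosolic and at −0.19 for mitochondrial synthetases. It lies at 1.90 for the list of uncharged tRNA sensing, which also holds ATF4 and other genes that do not sense tRNA.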

How the data were processed

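RNA of 6 one-colour Affymetrix arrays, 3 control and 3 knockdown by their titles, was analysed. The authors deposited log2 values for 54675 probe sets, with a floor at 4, which is log2 of 16, so an offset of 16 was inferred. Per the submitters' processing notes MAS5 and PLIER were used; their roles, and the normalization between arrays, are not given in the sources used here. Array medians differed by no more than the allowed gap of 0.1, so the deposited values were used unchanged. The 62 control probe sets stayed out of the tests. Of the others 41091 had 1 symbol, 1801 several and 11721 none, and 41037 were found by gene ID in RefSeq (GRCh38.p14).

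A gene was read by its single-symbol probe set of highest mean and tested if that mean reached 5.49, the median of all probe sets (12939 of 19775 genes). The groups were compared with limma 3.58.1 in R 4.3.3 (lmFit, eBayes with trend, two-sided, Benjamini-Hochberg), after a test on simulated data. Pairs of genes were compared by exact permutation. Marker lists were summed as signal less the inferred 16, with 16 added back before the log2.

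The members and lists were chosen with earlier results of these data known. Array values are given for up to 8 cytosolic and 6 mitochondrial called members of largest change, for members whose probe sets or partners disagree, and for the rest where space allowed; of other lists, up to 4 called genes by adjusted p are named. Exceptions are EIF2AK4, the other amidotransferase subunits and AIMP1, named for their role, and RPP25, named because of the filter. IMPACT, GCN1 and EIF2S1 were named after their values were seen. The number of arrays limits the precision.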

Additional observations from a re-analysis of the deposited data

How the results depend on the processing

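The calls were recomputed under 18 alternatives. Of 20 called members, 16 kept direction and call in each alternative that tested them. The cytosolic count higher was 11 to 12 in all of them and the count lower was 4 to 5, except against a 1.2-fold change, where it was 2. The mitochondrial count lower was 4 (3 to 5 in most alternatives), but 7 after quantile normalization, 8 after centring on array medians and 8 after cyclic loess; the count higher was 1, but 0 with the mean over probe sets and 0 against a 1.2-fold change. The median cytosolic change was 0.64, but 0.48 when a gene's probe sets were averaged and 0.73 when those marked _x_ or _s_ were used last. Against a 1.2-fold change 2825 genes were called in all, in place of 6114. The sign turned for FARSB with the mean over probe sets (0.31), with marked probe sets used last (1.29) and without control replicate 1 (0.0299; −0.1120 without control replicate 2), and with the mean over probe sets for CARS2 (0.11) and EARS2 (−0.0036). FARSB, CARS2 and EARS2 have probe sets of both signs; otherwise the cause was not tested. Leaving out each array in turn gave 11 cytosolic members higher throughout, 4 to 5 lower, 1 mitochondrial member higher and 4 to 5 lower, and medians of 0.58 to 0.69 and −0.23 to −0.17. A smaller offset of 1 in place of the inferred 16, chosen after seeing the data, gave the same counts of members and medians of 0.66 and −0.22.

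The replicate numbers of the titles did not pair the arrays (correlations of same-numbered deviations −0.04, −0.12 and −0.22). With the replicate block 11 cytosolic members were higher and 4 lower, 1 mitochondrial member was higher and 4 lower, and 5494 genes were called. No call of a member changed under the block.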
